A study of Mus musculus with 96 samples.

Results

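A set of 10 genes of prostaglandin synthesis, signalling and breakdown were followed along the mouse nephron. They were taken by gene symbol from a table of 54532 genes, and 10 of 10 were found. They are the cyclooxygenases Ptgs1 and Ptgs2, the prostaglandin E synthases Ptges, Ptges2 and Ptges3, the prostaglandin E2 receptor genes Ptger1, Ptger3 and Ptger4, the uptake carrier gene Slco2a1 and the breakdown enzyme gene Hpgd. RNA came from hand-dissected glomeruli and 14 tubule segments of pathogen-free male C57BL/6 mice aged 6 to 8 weeks, on normal chow and free water, with no genetic change or treatment named for any group. In order of flow the segments were PTS1, PTS2 and PTS3 of the proximal tubule, DTL1 (short loops), DTL2 and DTL3 (long loops, outer and inner medulla) of the descending thin limb, and ATL, the thin ascending limb. They went on with MTAL and CTAL, the thick limb in medulla and cortex, DCT, the distal convolution, CNT, the connecting segment, and CCD, OMCD and IMCD, the collecting duct in cortex, outer medulla and inner medulla. The 93 samples were pieces from 53 mice. Group sizes were 5 mice (PTS2, CTAL, CCD), 4 mice (ATL, OMCD) or 3 mice (the rest), and the pieces of a mouse were averaged.

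Levels are TPM, transcript abundances scaled for length and to the same total in every sample, given as mean ± SD over mice. TPM keep no read depth, so depth is unknown here and no counting interval is given. Differences between groups are on the log2(TPM + 1) scale, with the standard error (SE) of limma's fit. A gene was called different where its adjusted p was under 0.05 and its log2 difference was at least 1. A dissected segment holds several cell types, and fewer cells of a type cannot be told apart from less RNA per cell.

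Prostaglandins are lipid signals made on demand and acting close to their source. Phospholipases free arachidonic acid from membranes, a cyclooxygenase turns it into the unstable prostaglandin H2, and terminal synthases convert that into prostaglandin E2 or its relatives. Prostaglandin E2 then acts through receptors that raise calcium (EP1), lower cyclic AMP (EP3) or raise it (EP4), and it is cleared by uptake through the carrier encoded by Slco2a1 and oxidation by the enzyme encoded by Hpgd. In the kidney it is known for opposing salt and water reabsorption and for tuning glomerular blood flow and renin release.

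The groups carried the markers of their labels. Summed podocyte markers ran from 7428 to 8575 TPM in the glomerulus and reached at most 50.1 TPM in any other mouse. The 2 distal convoluted markers summed to 5863 to 6398 TPM in DCT and the 3 thick limb markers to 21450 to 45790 TPM across MTAL and CTAL. Thick limb markers were also at 1381 to 2252 TPM in DCT and 304 to 736 TPM in ATL. Principal cell markers summed to 8488 TPM or more in every mouse of CNT, CCD, OMCD and IMCD. Intercalated cell markers summed to 2419 to 5801 TPM in CNT, CCD and OMCD, but only to 0.333 to 4.79 TPM in IMCD. In DCT they summed to 782 to 848 TPM, against 8.23 to 15.3 in CTAL. Principal cell markers summed to 554 to 639 TPM in DCT, against 47.9 to 88.8 in CTAL. Samples differed in a further way: 23597 to 29454 genes reached 1 TPM in the glomerulus and DTL1 mice against 11474 to 13848 in the proximal mice, and ATL fell into mice 2 and 3 (13949 and 13532 genes) and mice 4 and 6 (23465 and 24647).

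All 10 members passed the filter on low values, which asked for 3 or more mice at 1 TPM or above. All 10 differed among the 15 groups by limma's moderated F-test, as did 93.9% of the genes tested, so the count says little about these genes. Ptges2 and Ptges3 had a mean of 10 TPM or more in 15 of 15 groups. Ptgs1 did so in 9 groups, Ptger3 and Slco2a1 in 6, Ptges, Ptger1 and Ptger4 in 5, Hpgd in 4, and Ptgs2 in 0.

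**Figure D1:**
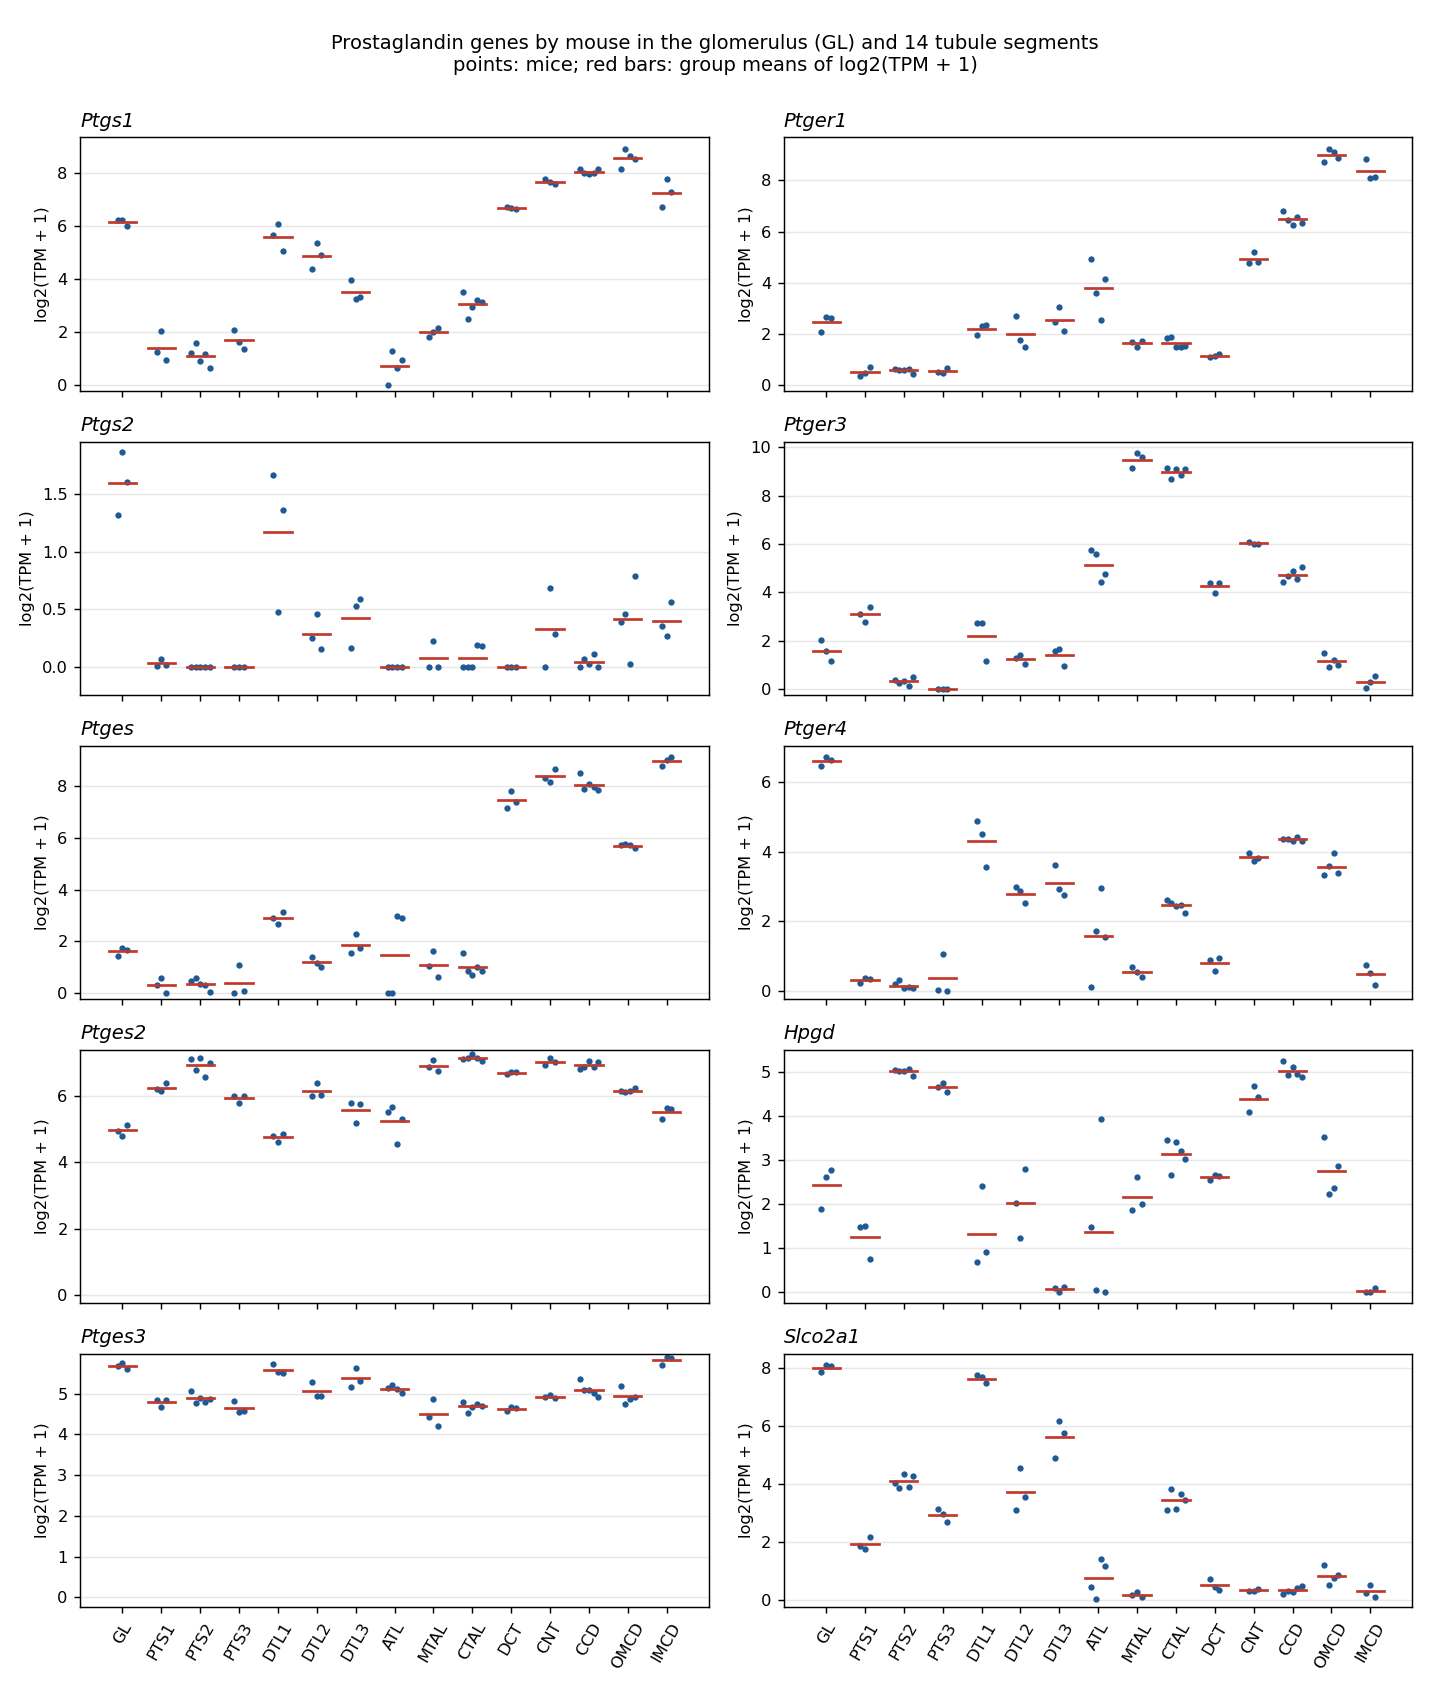
Level of each of the 10 members as log2(TPM + 1), by mouse, in the glomerulus (GL) and 14 tubule segments; each point is a mouse and each red bar a group mean. Ptges2 and Ptges3 are present in every group, Ptger3 peaks in MTAL and CTAL, Ptgs1, Ptges and Ptger1 are high at the distal end, and Ptgs2 stays under 3 TPM in every mouse.

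The constitutive cyclooxygenase gene Ptgs1 was most abundant at the distal end of the nephron, and it was also present in the glomerulus and the descending thin limbs. DCT held 100.3 ± 2.20 TPM, CNT 200.6 ± 15.8, CCD 262 ± 16.4, OMCD 377 ± 78.8 and IMCD 157 ± 56.8 (n = 3, 3, 5, 4 and 3 mice). The OMCD mice stood at 280.2, 470, 396 and 362 TPM, and the lowest of them lay just above the highest CCD mouse, at 280.1 TPM. The IMCD mice stood at 102, 216 and 154 TPM and overlapped CNT. The step up from CTAL (7.46 ± 2.11 TPM) to DCT was 3.62 log2 units (SE 0.27, adjusted p = 5.67e-15), and OMCD exceeded IMCD by 1.31 (SE 0.28, adjusted p = 0.000209). Principal and intercalated cell markers were also higher in DCT than in CTAL. Their part in the rise of Ptgs1, and of Ptges, at that boundary was not tested. The steps between DCT and CNT, CNT and CCD, and CCD and OMCD, of 0.99, 0.38 and 0.50 log2 units upwards in distal direction, were not called, although the mice did not overlap in any of these pairs. The step from DCT to CNT passed without DCT mouse 1 (1.01) or CNT mouse 3 (1.04).

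Upstream of the distal nephron Ptgs1 had a second range of intermediate levels. The glomerulus held 69.2 ± 5.95 TPM, DTL1 48.6 ± 16.7, DTL2 29.2 ± 9.75 and DTL3 10.5 ± 3.34. The glomerulus, DTL1 and DTL2 overlapped pairwise in this order, whereas every DTL2 mouse was above every DTL3 mouse (1.41 log2 units, SE 0.30, adjusted p = 0.000392). In a fit of these 2 groups alone the adjusted p was 0.0578. In the proximal tubule, ATL and MTAL the group means lay between 0.71 and 2.97 TPM, and one ATL mouse was listed at 0.

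Ptgs2, the inducible cyclooxygenase gene, which in the kidney is known from the macula densa and medullary interstitial cells, was close to the lower end of the table everywhere. The glomerulus mice stood at 1.5, 2.65 and 2.05 TPM and the DTL1 mice at 2.18, 0.390 and 1.58 TPM. These were the only groups with a mean of 1 TPM or more, and they overlapped. Of the 93 samples, 45 had a value above 0 and 10 reached 1 TPM. PTS2, PTS3, ATL and DCT were listed at 0 in every mouse.

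The cortical thick limb, the segment the macula densa borders, held 0.055 ± 0.0753 TPM of Ptgs2, with 3 of 5 mice listed at 0. The macula densa marker Nos1 was at 0.092 ± 0.129 TPM in the same mice, so this marker was near 0 there too. Nos1 was highest in the groups where Ptgs2 was highest, at 1.12 to 5.34 TPM in DTL1 and 1.35 to 2.15 TPM in the glomerulus, the only groups with every mouse at 1 TPM or more, and its part in the Ptgs2 level was not tested. Ptgs2 passed the filter on low values only through the glomerulus, as DTL1 mice 1 and 5 were the only others at 1 TPM. Its test against the tubule therefore cannot show a higher level there. As a description, the glomerulus stood 1.32 log2 units (SE 0.13) above the tubule. That difference was 0.43 with a pseudocount of 5 and 0.31 (adjusted p = 0.0493) after quantile normalization, and neither was called. The part of dissection in the Ptgs2 level was not tested. The 9 listed early-response genes, such as Fos and Egr1, summed to 1035 to 7029 TPM in CCD, where Ptgs2 was at most 0.080 TPM. They summed to 1020 to 1850 TPM in the glomerulus, 878 to 1969 TPM in DTL1 and 605 to 3178 TPM in CNT, where Ptgs2 was at most 0.605 TPM. The highest sum of any mouse was 8135 TPM, in DTL3 mouse 2, with Ptgs2 at 0.44 TPM.

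Ptges, which encodes the membrane-bound, inducible prostaglandin E synthase that works with cyclooxygenases, reached 10 TPM only in the distal groups. DCT held 176 ± 40.2 TPM, CNT 336 ± 66.3, CCD 270.0 ± 55.3, OMCD 50.9 ± 2.37 and IMCD 503 ± 56.7, against 6.48 ± 1.21 in DTL1 and 3.37 or less in the other 9 groups. The change from CTAL (1.03 ± 0.499 TPM) to DCT, 6.47 log2 units (SE 0.39, adjusted p = 9.17e-18), exceeded that of any other member at any of the 14 boundaries tested.

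The outer medulla broke this pattern. The 4 OMCD mice stood at 52.3, 52.5, 51.4 and 47.5 TPM of Ptges. The 5 CCD mice ranged from 233 to 365 TPM, and the IMCD mice stood at 442, 515 and 553 TPM. No OMCD mouse came near a mouse of either neighbour. Ptges was thus 2.37 log2 units lower in OMCD than in CCD (SE 0.36, adjusted p = 2.71e-06) and 3.28 lower than in IMCD (SE 0.41, adjusted p = 9.23e-09), in the segment where Ptgs1 was highest. Expressed as a ratio within each mouse, Ptges over Ptgs1 averaged 1.76 ± 0.395 (DCT), 1.69 ± 0.438 (CNT), 1.03 ± 0.182 (CCD), 0.140 ± 0.0325 (OMCD) and 3.44 ± 0.979 (IMCD). The highest OMCD mouse, at 0.187, was below the lowest mouse of the other 4 segments, at 0.837. The OMCD mice also stood apart in genes at 1 TPM, with 17213 to 20867 against 13375 to 13813 in CCD and 13595 to 14712 in IMCD. Summed endothelial markers were 462.5 to 618.7 TPM in OMCD, 167.2 to 268.5 in CCD and 35.6 to 329.6 in IMCD. The part of either in the Ptges level was not tested.

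Across the 15 groups the means of Ptgs1 and Ptges had a Pearson r of 0.839 on the log scale, the highest among the 45 pairs of members. It is a description over 15 points that share the table's scaling. Since these 2 genes were high in the same segments, the 200 bases before their RefSeq start sites (GRCm38.p6) are shown, both 5′ to 3′ on the gene's strand. Capitals mark matches, on either strand, to a GC box, a TATA box, a CCAAT box or the core of a cyclic AMP response element.
Ptgs1 (chr2:36230226-36230425, plus strand): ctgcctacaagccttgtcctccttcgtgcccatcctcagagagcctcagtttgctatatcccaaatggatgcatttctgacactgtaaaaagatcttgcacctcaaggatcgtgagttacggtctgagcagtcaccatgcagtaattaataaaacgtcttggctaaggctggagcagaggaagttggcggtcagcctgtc
Ptges (chr2:30903298-30903497, minus strand): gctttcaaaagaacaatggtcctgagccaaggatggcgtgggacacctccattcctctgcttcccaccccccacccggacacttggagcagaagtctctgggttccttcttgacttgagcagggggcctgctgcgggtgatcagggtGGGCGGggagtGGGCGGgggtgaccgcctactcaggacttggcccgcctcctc

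The Ptges window held 2 GC boxes and 63.0% G and C, and the Ptgs1 window held none of the 4 motifs and 49.0% G and C, around a median of 53% over 32851 promoters. Of those promoters 31.0% held the GC box letters GGGCGG and 9.96% the TATA box letters TATAAA. The CCAAT letters were in 29.3% and the response element core, CGTCA, was in 15.7%. GENCODE M21 places the start of the Ptges gene further upstream. A match is a run of letters in the window, and its use in these segments was not measured.

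The other prostaglandin E synthase genes were broad. Ptges2, which encodes a second membrane-associated prostaglandin E synthase, ran from 26.1 ± 2.37 TPM in DTL1 to 142 ± 7.01 in CTAL, and the means of CTAL, CNT, PTS2, CCD and MTAL lay between 119.8 and 142 TPM with overlapping mice between neighbours in that order. Every mouse of these groups was at 93.4 TPM or above, and every DTL1 and glomerulus mouse was at 34.0 TPM or less. It was called at 3 of 14 boundaries: lower in DTL1 than in PTS3 (1.17 log2 units, SE 0.17) and DTL2 (1.38, SE 0.17), and lower in ATL than in MTAL by 1.65 (SE 0.16, adjusted p = 8.19e-12). The fall from PTS2 to PTS3 missed the size limit at 0.998 log2 units (adjusted p = 2.57e-06), and it passed at 1.03 to 1.09 without PTS2 mouse 3, PTS2 mouse 5, PTS3 mouse 1 or PTS3 mouse 3.

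Ptges3 encodes p23, a cytosolic synthase that is also a co-chaperone of Hsp90. It ranged only from 22.1 ± 5.57 TPM in MTAL to 56.0 ± 4.05 in IMCD, overlapped at 14 of 14 neighbouring places in its order of levels, and was called at none of the boundaries by limma, none reaching the size limit. IMCD stood 0.89 log2 units above OMCD (SE 0.13, adjusted p = 1.48e-07), with mice at 51.4, 58.7 and 58.0 TPM against 26.1 to 35.4 TPM in OMCD. This step passed after median ratio rescaling (1.22) and quantile normalization (1.3), and the step from PTS3 to DTL1 passed at 1.02 without PTS3 mouse 1. A pseudogene named Ptges3-ps shares sequence with this gene, so its reads may be split between both.

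**Figure D2:**
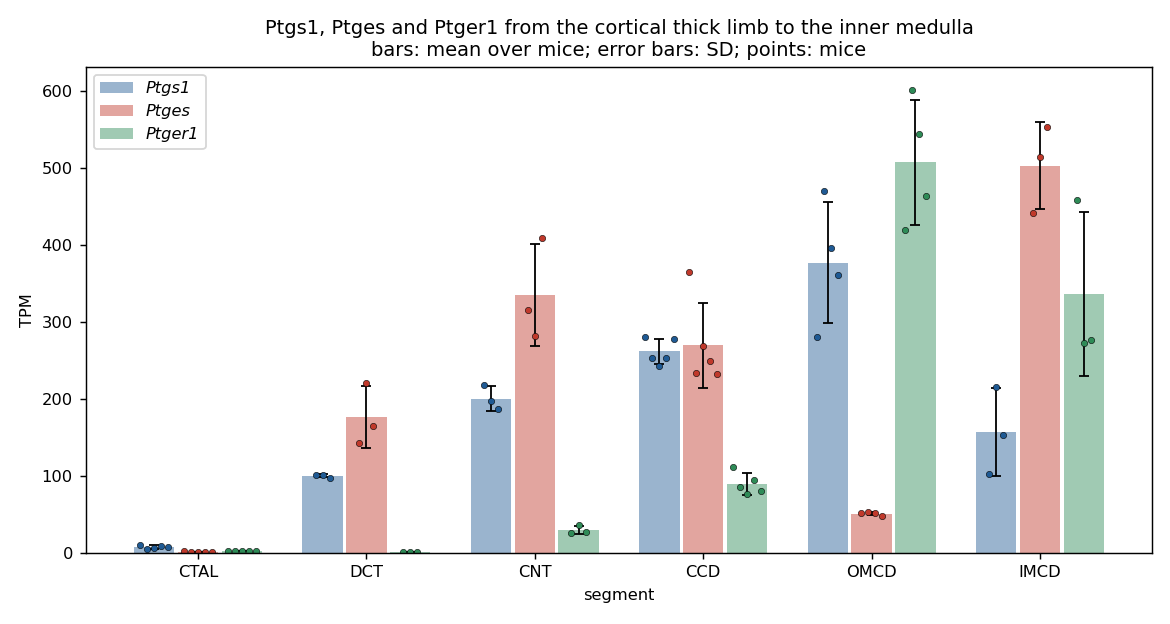
TPM of Ptgs1, Ptges and Ptger1 in 6 segments from CTAL to IMCD; bars are means over mice, error bars are SD and points are mice. Ptges drops to 50.9 TPM in OMCD between 270.0 in CCD and 503 in IMCD, while Ptgs1 and Ptger1 have their highest means, 377 and 508 TPM, in OMCD.

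The 3 receptor genes had their highest levels in different places. Ptger1, the gene of the calcium-coupled EP1 receptor, was a collecting duct transcript at very different levels. DCT held 1.19 ± 0.0862 TPM, CNT 29.5 ± 5.44, CCD 89.8 ± 14.2, OMCD 508 ± 81.4 and IMCD 336 ± 106. The OMCD mice stood at 420.0, 602, 545 and 464 TPM and the IMCD mice at 459, 273 and 277 TPM, so these groups overlapped. The mice of CCD (76.0 to 112 TPM) were below all of them and above all mice of CNT (26 to 35.8 TPM). The steps from DCT to CNT (3.78 log2 units, SE 0.31, adjusted p = 4.56e-13), CNT to CCD (1.57, SE 0.28, adjusted p = 0.000292) and CCD to OMCD (2.5, SE 0.26, adjusted p = 2.89e-10) were all called.

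Outside the collecting duct system only ATL had a mean Ptger1 above 5 TPM, with mice 2, 3, 4 and 6 at 29.1, 11.2, 4.82 and 16.9 TPM. Principal cell markers summed to 239, 213.4, 135 and 213.2 TPM in these mice, highest and lowest in the same mice as Ptger1, and their part in its level was not tested. In DCT they summed to 554 to 639 TPM. ATL exceeded MTAL by 2.20 log2 units (SE 0.29) and DTL3 by 1.28 (SE 0.29), but the latter mice overlapped, and without ATL mouse 2 the difference from DTL3 was 0.91 and was not called.

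Ptger3, the gene of the EP3 receptor that lowers cyclic AMP, was a thick ascending limb transcript. The MTAL mice stood at 567, 859 and 763 TPM, and the CTAL mice ranged from 412 to 563 TPM with a median of 543. No CTAL mouse reached the lowest MTAL mouse, although the difference of 0.51 log2 units (SE 0.26, adjusted p = 0.371) did not pass. The mean was 729 ± 149 TPM in MTAL and 507 ± 66.1 in CTAL, against 64.5 ± 2.55 in CNT, the next group in order.

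Ptger3 fell by 4.75 log2 units from CTAL to DCT (SE 0.26, adjusted p = 1.84e-19), where it was at 18.3 ± 3.09 TPM beside the thick limb markers given above, whose part in its level there and in ATL (36.4 ± 15.6 TPM) was not tested. It was higher again in CNT by 1.80 (SE 0.29, adjusted p = 5.75e-06). From there it declined through CCD (25.6 ± 4.73 TPM) and OMCD (1.26 ± 0.428) to IMCD (0.236 ± 0.207), and the first 2 of these 3 steps were called. With a pseudocount of 0.1 the fall from CNT to CCD had an adjusted p of 0.073 and the step from OMCD to IMCD passed (2.18). From CCD to OMCD Ptger1 and Ptger3 changed in opposite directions, Ptger1 being higher in OMCD by 2.5 log2 units and Ptger3 lower by 3.59 (SE 0.24, adjusted p = 3.76e-16). From OMCD to IMCD the means of both were lower, by 0.64 and 0.84 log2 units, and neither was called. At the proximal end Ptger3 was present in PTS1, with mice at 7.58, 5.83 and 9.57 TPM, but not above 0.42 TPM in any PTS2 mouse (2.76 log2 units, SE 0.26, adjusted p = 4.01e-12).

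Ptger4, the gene of the EP4 receptor that raises cyclic AMP, was the glomerular receptor. The glomerulus mice stood at 87.3, 104 and 99.5 TPM, above the DTL1 mice at 28.2, 21.9 and 10.7 TPM and every other mouse. It was the only 1 of the 10 members that passed the test of being higher in 1 group than in every other, which 8.80% of all genes passed for some group. Its margin was 2.26 log2 units over CCD, the group least far below (SE 0.30, adjusted p = 6.97e-07).

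A second, lower range of Ptger4 followed the cortical end of the collecting duct. CNT held 13.4 ± 1.20 TPM, CCD 19.4 ± 0.707 and OMCD 11 ± 2.5, against 0.738 ± 0.235 in DCT and 0.406 ± 0.274 in IMCD. The 5 CCD mice lay within 18.7 to 20.4 TPM. The step up from DCT to CNT (3.08 log2 units, SE 0.34, adjusted p = 1.20e-09) and the step down from OMCD to IMCD (3.10, SE 0.32, adjusted p = 4.28e-11) were called. CTAL (4.50 ± 0.505 TPM) also exceeded both MTAL (1.95, SE 0.30) and DCT (1.68, SE 0.30), at levels where a pseudocount of 5 ended both calls. Ptger4 overlaps Ttc33 on the opposite strand, and the library kit does not mark strand, so reads of both genes cannot be told apart where they overlap. Ttc33 was at 56.9 ± 2.11 TPM in the glomerulus and ran from 16.8 to 89.5 TPM over the groups, with its highest mean in DTL3.

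Slco2a1, the gene of the carrier that takes up prostaglandins from the outside of the cell, was highest in the glomerulus and DTL1 and nearly absent from the distal nephron. The glomerulus mice stood at 232, 270 and 265 TPM and the DTL1 mice at 215, 202 and 175 TPM. These groups did not overlap, but their difference of 0.37 log2 units was not called. DTL3 followed with 51.1 ± 21 TPM, then PTS2 (16.2 ± 2.69), DTL2 (13.5 ± 7.73) and CTAL (10.0 ± 2.35). From DCT to IMCD every group mean was at 0.809 TPM or less, so the segments rich in Ptgs1 and Ptges held little of the carrier transcript, as did MTAL and ATL.

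Slco2a1 changed at several boundaries. It was 3.97 log2 units higher in DTL1 than in DTL2 (SE 0.28, adjusted p = 3.93e-15), and it was 3.25 higher in CTAL than in MTAL (SE 0.25, adjusted p = 1.98e-13), where the mice stood at 7.66 to 13.2 TPM against 0.070 to 0.215 TPM. CTAL also exceeded DCT by 2.92 (SE 0.25, adjusted p = 1.00e-12). Within the proximal tubule PTS2 exceeded PTS1 by 2.14 (SE 0.25, adjusted p = 2.99e-09) and PTS3 by 1.17 (SE 0.25, adjusted p = 0.000595), and the second call was lost with a pseudocount of 5 and after quantile normalization.

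Endothelial transcripts were highest in the glomerulus and DTL1, the groups with the highest means of Slco2a1 and Ptger4, and were also high in DTL2 and DTL3. The 8 endothelial markers summed to 4529 to 4558 TPM in the glomerulus, 3343 to 4523 in DTL1, 1298 to 2348 in DTL2 and 814 to 1895 in DTL3, and to 35.6 to 619 TPM over the mice of the other groups. All 8 reached 1 TPM in every mouse of these 4 groups, of CNT and of OMCD, and Pecam1 stood at 282 ± 23.4, 131 ± 16.3, 79.1 ± 21.5 and 68.9 ± 23.6 TPM in the first 4. Stromal and muscle marker sums were also highest in the glomerulus, at 543 to 743 TPM against at most 80.8 in any other mouse. Leukocyte sums were 383 to 484 TPM there, against at most 209 in any other mouse. The part of any of these cells in the levels of Slco2a1, Ptger4 and Ptgs1 was not tested. Slco2a1 was at 16.2 TPM in PTS2, 10.0 in CTAL and 13.5 in DTL2. The endothelial sums there were 55.6 to 132, 260.1 to 546 and 1298 to 2348 TPM. Ptger4 was at 19.4 TPM in CCD, 5.95 in DTL2 and 7.90 in DTL3. The endothelial sums there were 167 to 269, 1298 to 2348 and 814 to 1895 TPM. In the 3 IMCD mice Ptgs1 was at 102, 216 and 154 TPM with endothelial sums of 35.6, 232 and 330 TPM. Mouse 1 was lowest in both, whereas Ptgs1 was highest in mouse 2 and the sum in mouse 3.

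**Figure D3:**
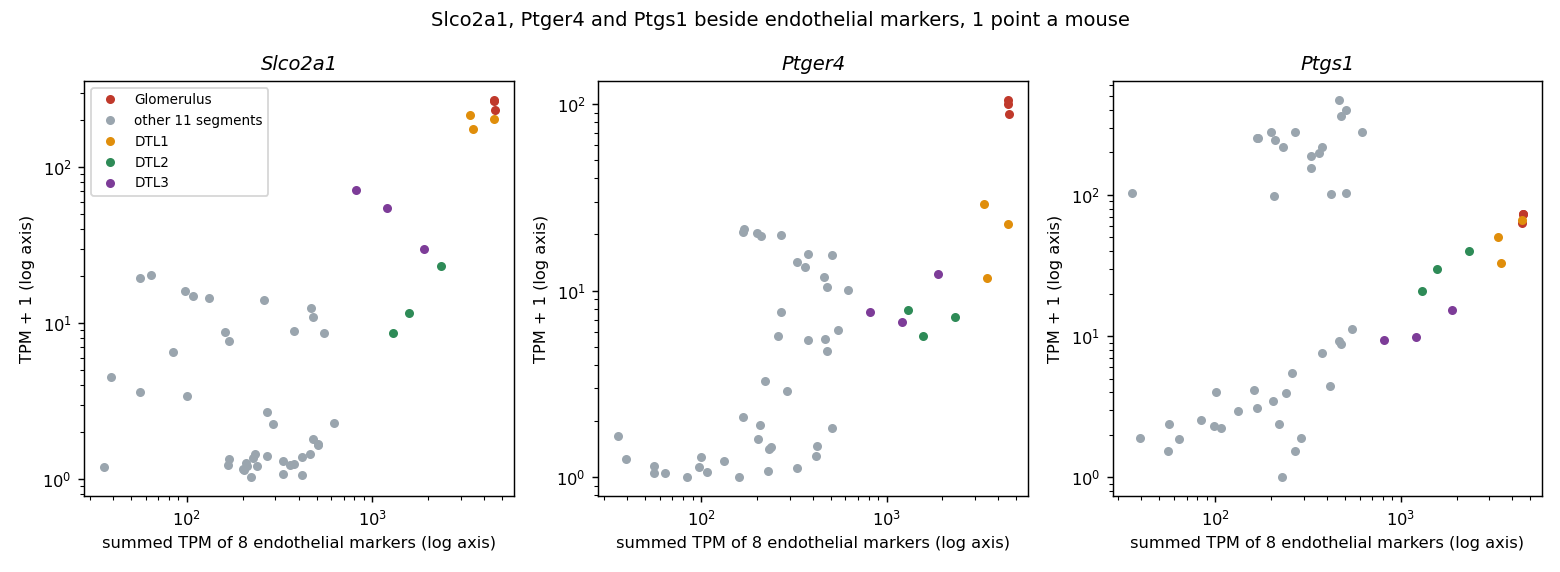
TPM + 1 of Slco2a1, Ptger4 and Ptgs1 against the summed TPM of 8 endothelial markers, both on log axes, 1 point a mouse. The glomerulus and DTL1 mice lie at the high end of the marker sum, at 3343 TPM or more, and the distal mice with high Ptgs1 lie at 619 TPM or less.

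Hpgd, whose enzyme inactivates prostaglandins by oxidising the 15-hydroxyl group, had 2 separate maxima. The 5 CCD mice stood at 36.7, 29.3, 33.2, 29.7 and 28.2 TPM and the 5 PTS2 mice at 32.0, 31.1, 31.3, 32.3 and 29.1 TPM. These groups overlapped, and their means were 31.4 ± 3.49 and 31.1 ± 1.26 TPM. PTS3 (24.1 ± 1.74) and CNT (20.2 ± 4.32) came next and overlapped, and the remaining groups were at 8.01 TPM or less.

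The edges of both maxima were called. Hpgd was 3.76 log2 units higher in PTS2 than in PTS1 (SE 0.43, adjusted p = 1.44e-09), where it was at 1.44 ± 0.659 TPM. It was higher in CNT than in DCT by 1.81 (SE 0.48, adjusted p = 0.00758; 0.134 with a pseudocount of 0.1), and lower in OMCD than in CCD by 2.30 (SE 0.40, adjusted p = 2.63e-05). In IMCD it almost vanished, with mice at 0.0133, 0 and 0.0667 TPM against 3.68 to 10.6 TPM in OMCD (2.68 log2 units, SE 0.45, adjusted p = 5.15e-06). IMCD thus joined the highest Ptges level of the series with the lowest Hpgd mean and a Slco2a1 mean of 0.246 ± 0.188 TPM. Neither low level was particular to IMCD. Slco2a1 had a mean under 1 TPM in 7 groups, and the Hpgd values of IMCD overlapped those of DTL3 (mean 0.0517 TPM). The ATL mean of Hpgd, 3.98 ± 6.80 TPM, rested on mouse 4, at 14.1 TPM, and the other 3 mice were at 1.79 TPM or less. The difference between DTL3 and ATL, 1.29 log2 units in favour of ATL, was 0.44 without that mouse and was not called, nor was it without any single DTL3 mouse (1.25 to 1.31, adjusted p = 0.0542 to 0.0661).

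**Figure D4:**
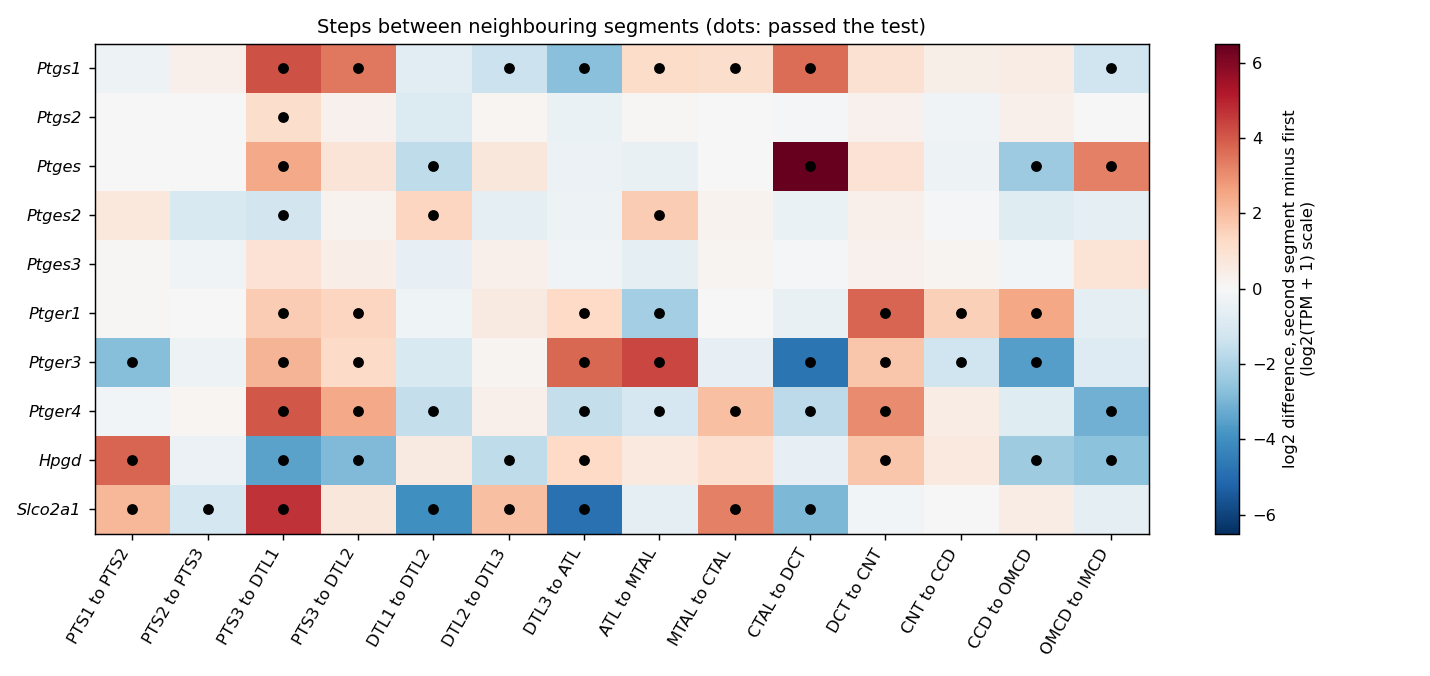
Log2 difference of each member at 14 boundaries between neighbouring segments, second segment minus first, on the log2(TPM + 1) scale; red is higher in the second segment, blue lower, and dots mark steps that passed the test. Of 140 steps 58 carry a dot, and the darkest is the step of Ptges from CTAL to DCT. Of all genes, 1.12% (CNT to CCD) to 65.5% (PTS3 to DTL1) were called at a boundary.

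By boundary, 58 of the 140 steps of the 10 members passed. The share of all genes called ran from 1.12% (CNT to CCD) to 65.5% (PTS3 to DTL1), and it is given beside each count. From PTS1 to PTS2, Ptger3 was lower and Hpgd and Slco2a1 were higher (3 of 10 members, against 9.57% of all genes). From PTS2 to PTS3 only Slco2a1, which was lower, was called (1 of 10, against 4.70%), and Ptges2 just missed the size limit at 0.998. From PTS3 into the thin limbs many genes differed in all: 9 of 10 members and 65.5% of all genes towards DTL1, and 5 of 10 members and 40.0% of all genes towards DTL2. Ptgs1, Ptger1, Ptger3 and Ptger4 were higher and Hpgd was lower in both. The median of all genes was itself 1.33 log2 units higher in DTL1. After quantile normalization 27% and 19.9% of all genes were called at these boundaries, the direction of Ptger1 flipped at both, Ptger3 was called at neither, and Ptgs2 and Ptges lost their calls towards DTL1 (0.04 and 0.16). Without DTL1 mouse 1 the Ptgs2 step was 0.91 and was not called.

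Within the thin limbs, DTL1 and DTL2 differed in 4 of 10 members (28.2% of all genes): Ptges, Ptger4 and Slco2a1 were higher in DTL1 and Ptges2 in DTL2. After quantile normalization the calls of Ptges (0.50) and Ptger4 (0.96) were lost, and with a pseudocount of 5 that of Ptges (0.83) was. Ptger3 missed at 0.975 and passed without DTL1 mouse 5 (1.49) or DTL2 mouse 2 (1.06). It also passed with a pseudocount of 0.1 and with the mouse number as a block. Ptgs2 missed at 0.888 and passed without DTL1 mouse 3 (1.24) and with a pseudocount of 0.1. DTL2 and DTL3 differed in Ptgs1, Hpgd and Slco2a1 (3 of 10, against 9.58%), and the Hpgd call was lost without DTL2 mouse 3 (1.34, adjusted p = 0.086). From DTL3 to ATL 6 of 10 members differed (14.6% of all genes), with Ptgs1, Ptger4 and Slco2a1 lower and Ptger1, Ptger3 and Hpgd higher. From ATL to MTAL 5 of 10 differed (28.1%), with Ptgs1, Ptges2 and Ptger3 higher and Ptger1 and Ptger4 lower. The Ptgs1 call there was lost without ATL mouse 2 (0.95) and the Ptger4 call without ATL mouse 4 (0.62, adjusted p = 0.069). Hpgd ATL minus MTAL was -0.66 with all mice, not called, and -1.51, called, without ATL mouse 4. In fits of the 2 groups alone, adjusted p-values were 0.0587 for Ptger4 between DTL1 and DTL2, 0.0738 for Slco2a1 between DTL2 and DTL3, and 0.0614 to 0.585 for Ptger1, Ptger4, Hpgd and Ptgs1 at the boundaries of ATL where the other fit called them, except Ptgs1 between DTL3 and ATL. Ptges was split within ATL, at 6.95 and 6.51 TPM in mice 4 and 6 and at 0.010 and 0 TPM in mice 2 and 3, the same split as in the number of genes detected.

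From MTAL to CTAL Ptgs1, Ptger4 and Slco2a1 were higher (3 of 10, against 3.15%), and from CTAL to DCT Ptgs1 and Ptges were higher and Ptger3, Ptger4 and Slco2a1 lower (5 of 10, against 4.35%). From DCT to CNT Ptger1, Ptger3, Ptger4 and Hpgd were higher (4 of 10, against 5.22%). CNT and CCD, which differed in 1.12% of all genes, differed in Ptger1 and Ptger3 (2 of 10). From CCD to OMCD Ptges, Ptger3 and Hpgd were lower and Ptger1 higher (4 of 10, against 12.1%). From OMCD to IMCD Ptgs1, Ptger4 and Hpgd were lower and Ptges higher (4 of 10, against 18.6%). The Ptgs1 step between MTAL and CTAL was lost with pseudocounts of 0.1 and 5 and after quantile normalization, and the Ptgs1 step between OMCD and IMCD after median ratio rescaling.

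Regions were also set against the mean of the other tubule segments, with every segment weighted equally on the log2(TPM + 1) scale. A few segments with very high levels therefore count for less than in a mean of TPM, and the 2 can differ in direction. In the collecting duct (CCD, OMCD and IMCD) 5 of 10 members differed, against 7.36% of all genes. Ptgs1 (4.51 log2 units, SE 0.12), Ptges (5.21, SE 0.18) and Ptger1 (6.00, SE 0.13, adjusted p = 1.99e-35) were higher, and Ptger3 (1.79 lower, SE 0.12) and Slco2a1 (2.35 lower, SE 0.12) were lower, with a median over members of 0.24 against -0.06 over all genes. Ptger4 missed at 0.97 and passed without ATL mouse 4 (1.01), without IMCD mouse 3 (1.01) and without the glomerulus and DTL1 (1.22). In the thick ascending limb 4 of 10 differed, against 9.93% of all genes. Ptger3 was 6.75 higher and Ptgs1, Ptges and Ptger1 were lower.

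In the proximal tubule 6 of 10 members differed, against 23.8% of all genes, and 5 of them were lower. Hpgd was the exception, at 1.42 log2 units higher, and that call was lost with a pseudocount of 5. Of all genes called there 16.9% were higher, so most were lower too. That share was 49.3% after median ratio rescaling and 52.7% after quantile normalization. Ptges2 passed there only after median ratio rescaling. Slco2a1 had a log2 difference of 0.83 that was not called as deposited and passed after median ratio rescaling (1.62) and quantile normalization (1.47), but its mean TPM ran the other way, at 8.56 in the proximal tubule and 25 in the other tubule segments. In the glomerulus 7 of 10 differed from the tubule, against 35.6% of all genes. Slco2a1 (5.68 log2 units, SE 0.21), Ptger4 (4.58, SE 0.25), Ptgs1 (1.73, SE 0.22) and Ptgs2 were higher on the log scale, and Ptges, Ptges2 and Ptger3 were lower. Ptgs2 counts among the 7 but passed the filter only through the glomerulus, so nothing is concluded from its call. For Ptgs1 the mean TPM ran the other way, at 69.2 in the glomerulus and 85.8 over the tubule segments, since DCT, CNT, CCD, OMCD and IMCD all exceeded the glomerulus. The median over members was 0.25 and over all genes 0.69.

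A list of 24 further genes of the pathway was measured alongside, and 22 of them passed the filter on low values. The receptor genes Ptgdr and Ptgdr2 did not and were at 0.417 TPM or less in every group mean. Of the 22, 22 differed among the groups by the F-test (93.9% of all genes) and 6 were higher in 1 group than in every other (8.80%). Against the other tubule segments, 8 of 22 differed in the glomerulus, where 35.6% of all genes did, and all 8 were higher, as were 88.9% of the genes called there (73% after median ratio rescaling and 48.4% after quantile normalization). Ptgir counts among the 6 and the 8 but passed the filter only through the glomerulus (6.2 to 7.85 TPM). Nothing is concluded from its calls there. In the collecting duct 5 were higher and 3 lower (7.36% of all genes were called). In the proximal tubule 1 was higher and 6 were lower (23.8%), and in the thick limb 3 were higher and 4 lower (9.93%). Of all genes called, 62% were higher in the collecting duct, 16.9% in the proximal tubule and 33.9% in the thick limb. These shares were 45.9%, 49.3% and 45.5% after median ratio rescaling and 50.6%, 52.7% and 58.3% after quantile normalization. These directions are on the log scale. The mean TPM ran the other way for Tbxas1 in the glomerulus (11.9 against 12.4) and for Ptgds in the proximal tubule (156 against 89.8).

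Among the enzymes that release the substrate, Pla2g4a, the gene of cytosolic phospholipase A2, was high in the glomerulus (67.6 TPM) and held 27.6 to 44.5 TPM from CNT to IMCD, the stretch where Ptgs1 was high, but also 34.3 in CTAL and 33.4 in DTL1. It was called higher in the collecting duct (2.52 log2 units, SE 0.18) and lower in the proximal tubule (3.82, SE 0.19), where PTS3 was listed at 0. Ptgds, which encodes a prostaglandin D synthase, had its high levels elsewhere, with 466 TPM in PTS1, 321 in MTAL, 278 in ATL and 255 in DTL2 but 0.563 in CNT and 0.354 in IMCD. Tbxas1, the thromboxane synthase gene, was highest in CTAL (52.2 TPM) and PTS1 (43.3). Ptgis, the prostacyclin synthase gene, was at 10.3 TPM in the glomerulus and 10.1 in DTL1 and at 1.47 or less elsewhere.

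Of the aldose reductase family, which includes prostaglandin F synthase activity, Akr1b7 was at 99.6 TPM in the glomerulus against 2.23 or less elsewhere, and Akr1b3, which also makes the osmolyte sorbitol, was at 8434 TPM in ATL, 5432 in IMCD and 2934 in DTL3. Ptgfr, the gene of the prostaglandin F receptor, was at 213 TPM in DCT, 125 in CNT, 146 in CCD and 85.8 in OMCD, and at 0.0333 in IMCD, 6.38 log2 units lower than in OMCD (SE 0.33, adjusted p = 2.19e-20). It was thus high in DCT, where Ptger1 and Ptger4 were low and Ptger3 was at 18.3 TPM. The remaining cyclic AMP raising prostaglandin E receptor gene, Ptger2, was at 32.5 TPM in DTL3 and at 7.40 or less elsewhere, a segment where Ptger4 was at 7.90 TPM. Tbxa2r, the thromboxane receptor gene, shared its highest group with Ptger4, at 152 TPM in the glomerulus.

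Among transport and breakdown genes, Slc22a22, an organic anion transporter gene described for prostaglandins, had means of 54.8, 119 and 59.6 TPM in PTS1, PTS2 and PTS3 and group means of 0.916 TPM or less elsewhere, where the highest mouse, in DTL2, reached 1.76 TPM. PTS2 was also the proximal segment with the most Hpgd and Slco2a1. Abcc4, the gene of an efflux pump that exports prostaglandins among other anions, was highest in IMCD (141 TPM) and ATL (106), and was 2.31 log2 units higher in IMCD than in OMCD (SE 0.23, adjusted p = 4.20e-11). Ptgr2, a reductase gene that acts after Hpgd, ran from 21.1 TPM in IMCD to 197 in DTL2, and was 2.48 log2 units lower in IMCD than in OMCD (SE 0.22, adjusted p = 6.18e-13).

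**Figure D5:**
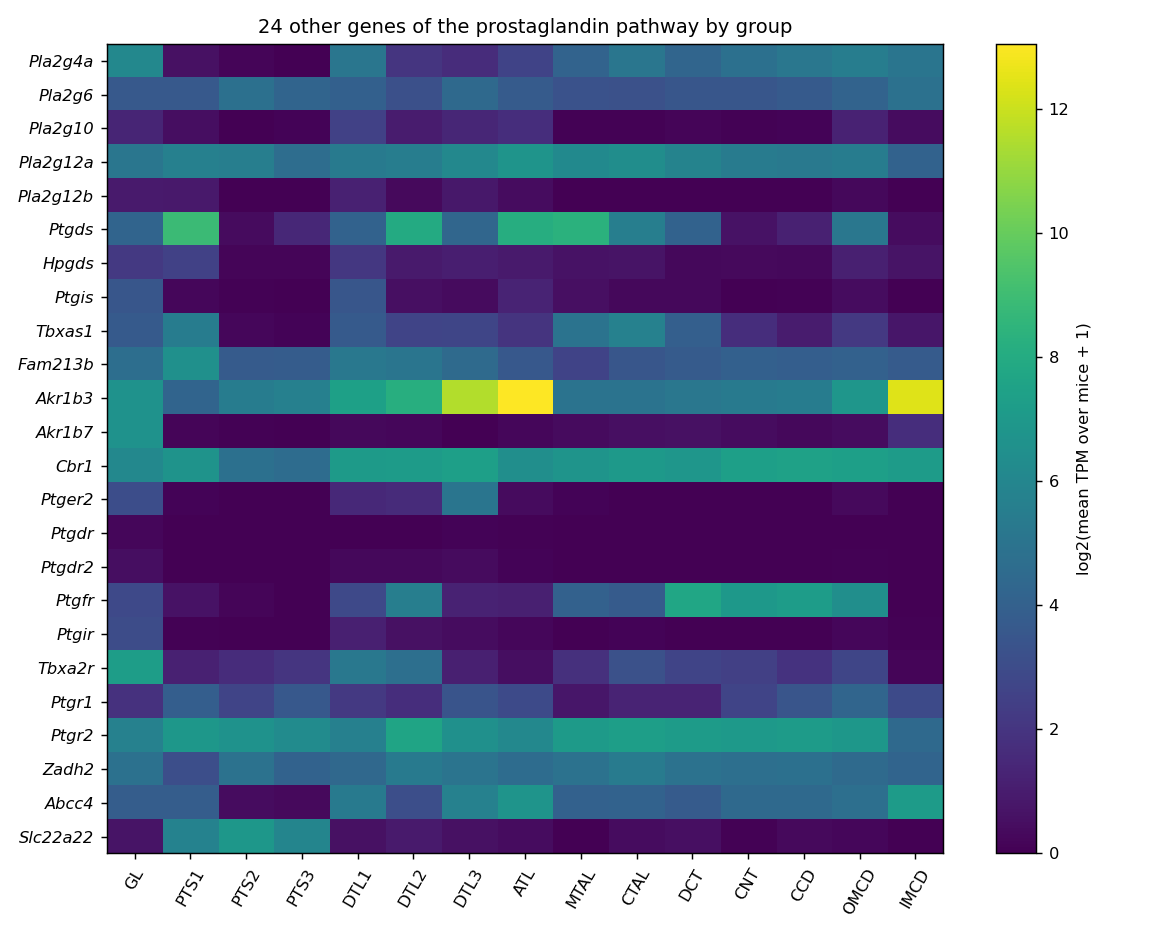
Mean level over mice of 24 further pathway genes as log2(TPM + 1) in the glomerulus (GL) and 14 segments, with brighter colour for a higher level. Ptgfr is bright from DCT to OMCD, Slc22a22 in PTS1 to PTS3, Akr1b3 in DTL3, ATL and IMCD, and Akr1b7 in the glomerulus.

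Genes with the most similar profiles, up to 3 for each member, were found by the Pearson r of 15 group means on the log scale among 12067 genes. For Ptgs1 they were Cav2, Gata2 and Krt80 (r = 0.975, 0.958 and 0.957), and for Ptges Slc9a4, Atp6v0e and Ociad2 (0.958, 0.936 and 0.932). For Ptger1 they were Wnt9b, Sbspon and P2ry14 (0.974, 0.972 and 0.940), for Ptger3 Cpt1b, Repin1 and Nr0b2 (0.909, 0.884 and 0.870), and for Ptger4 Fyn, Numb and Agpat4 (0.966, 0.960 and 0.954). Hpgd had Gnpat and Tmem178 (0.893 and 0.853) and Slco2a1 had Mtss1, Katnal1 and Cpe (0.917, 0.911 and 0.899). For Ptgs2 the nearest were Gucy1a2, C1qtnf7 and Srms (0.971, 0.959 and 0.952), all highest in the glomerulus. Its mean was under 1 TPM in 13 of the 15 groups, all but the glomerulus and DTL1. Its likeness therefore rests mainly on these, and nothing is concluded from it. Ptges2 had BC004004 and Retsat (0.945 and 0.944) and Ptges3 had Polr3g, Ssu72 and Imp3 (0.964, 0.943 and 0.942). Among the members themselves Ptges2 and Ptges3 had the most opposed profiles, with r = -0.753.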

How the data were processed

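Microdissected glomeruli and tubule segments were profiled by RNA sequencing. Per the labels' protocols, Direct-zol extraction was followed by SMARTer V4 cDNA synthesis and Nextera XT library preparation, which does not mark strand. The submitters' processing notes name STAR 2.5.4a, RSEM 1.3.0, Cell Ranger 3.0.2 and Seurat, without roles, and the genome build and annotation are not given in the sources used here. The deposited table holds TPM computed by the authors. All 93 sample columns were used, and a PTS2 column matching no title was used as a mouse without a number. The design text counts 53 mice, as many as combinations of number and segment, so each combination was 1 mouse. Nothing else says that mice were independent litters or days, and p-values measure the spread between these mice. A further 3 single-cell samples were not analysed here.

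Pieces of a mouse were averaged as TPM for levels and as log2(TPM + 1), a pseudocount of 1, for tests. The fit kept 33793 genes that reached 1 TPM in 3 or more mice, and limma 3.58.1 (R 4.3.3; lmFit, eBayes with a trend) was fitted to all 15 groups together. Tests were the moderated F-test, 14 neighbouring pairs, 4 regions against the mean of the other tubule segments, and an intersection-union test of 1 group against every other, each with Benjamini-Hochberg adjustment over all genes tested. The threshold was an adjusted p under 0.05, joined outside the F-test by a minimum log2 difference of 1. The limma steps were tested on simulated data. Log2 differences on this scale understate the change of low genes. The members, the lists, the naming rule and the tests were chosen with earlier results of these data known. Named were the members, 24 pathway genes, fixed marker lists and, for each member, the 3 genes with the closest profile and a mean of at least 10 TPM in their highest group; a few of these results are not reported here. Promoters and overlaps came from RefSeq (GRCm38.p6, found for 9 of 10 members) and GENCODE M21 tables. Tables were made in Python 3.11.15 with pandas 2.3.3 and numpy 2.4.6, figures with matplotlib 3.10.9. The alternatives run changed the pseudocount (0.1, 5) or the filter (5 TPM, none), or used median ratio rescaling, quantile normalization, other averaging of pieces, the mouse number as a block, subsets of ATL mice, separate fits of pairs, leaving out each mouse, and, added after seeing the data, leaving out the glomerulus and DTL1.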

Additional observations from a re-analysis of the deposited data

Results flagged for a closer look

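Dixon's test was run on 37 combinations of a member and a group of 4 or 5 mice, at means of at least 1 TPM. In 2 of them 1 mouse stood apart from the rest, where chance alone flags about 1 combination in 20. The combinations share mice and are not independent. Ptges in CCD was 365.4 TPM in mouse 1, against 233 to 269 TPM in the other 4 mice. Hpgd in ATL was 14.1 TPM in mouse 4, against 0 to 1.79 TPM in the other 3. The same ATL mouse had the highest leukocyte and stromal marker sums of its group, 178 and 70.6 TPM against at most 20.7 and 19.9 TPM, and their part in the Hpgd value was not tested.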

How the results depend on the processing

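The totals over all boundaries, and the counts by region, moved by less than 1.5 times under every alternative run. The steps passing were 42 to 68 of 140 against 58, and 56 to 60 when each mouse was left out in turn, with 60 under the mouse number as a replicate block. Counts at single boundaries moved more. Quantile normalization left 5 of 9 members called between PTS3 and DTL1, 3 of 5 between PTS3 and DTL2 and 2 of 4 between DTL1 and DTL2. A pseudocount of 5 left 3 of 5 between PTS3 and DTL2, 3 of 6 between DTL3 and ATL, 3 of 5 between ATL and MTAL and 1 of 3 between MTAL and CTAL. Fits of the 2 groups alone left 1 of 3 between DTL2 and DTL3, 3 of 6 between DTL3 and ATL and 2 of 5 between ATL and MTAL. With a pseudocount of 0.1, 1 member was called between CNT and CCD in place of 2. Between PTS2 and PTS3 the single call became 3 with a pseudocount of 0.1 and 2 with the block, and it was lost with a pseudocount of 5 and after quantile normalization. The block changed the call of 2 member differences and ended none. Mice with the same number did not deviate together (median r 0, range -0.22 to 0.282 over 290 pairs). Mice with different numbers were alike in this (median r 0, range -0.283 to 0.26 over 1016 pairs). The values thus showed no pairing by number, but they cannot tell whether a number marks a shared day or litter. Over all alternatives 12772 results kept their direction and side of the threshold, 60 lost and 53 gained a call, and 5 reversed. After median ratio rescaling Ptges2 PTS3 minus DTL2 became 1.01. After quantile normalization Ptger1 PTS3 minus DTL1 became 0.74 and Ptger1 PTS3 minus DTL2 became 0.079. With ATL mice 2 and 3 alone Ptges ATL minus MTAL became -1.01, and with ATL mice 4 and 6 alone Ptges DTL3 minus ATL became -1.10. The cause was not tested. Median ratio rescaling moved the median of all genes by over 0.1 in 8 of 18 comparisons and quantile normalization in 12, most for PTS3 minus DTL1, from -1.33 to -0.81 and -0.02. Quantile normalization also moved the number of genes called, over all genes, by over 1.5 times in 8 of the 18. The share of calls that were higher moved by over 10 percentage points in 14 comparisons under median ratio rescaling and in 16 under quantile normalization. Depth is unknown, so values under about 1 TPM cannot be weighed.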
